A study of Mus musculus with 16 samples.

Results

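The ETS transcription factors share a DNA-binding domain that recognises a core of GGAA, and 10 of them were examined here by name: *Ets2*, *Erg*, *Ets1*, *Elk1*, *Elk3*, *Elk4*, *Elf1*, *Elf3*, *Ehf* and *Etv6*. Their probes were taken by the gene symbol of the array annotation, which uses none of the measured levels. The tables hold 18 probes of 9 of these genes, among 25697 probes of 16593 named genes in all, and *Elk1* had no probe in the tables used here. *Ets2* and *Erg* lie in the segment of mouse chromosome 16 that is present in 3 copies in Ts1Rhr mice and in 2 copies in euploid mice. The other members lie outside it and are disomic in both genotypes, apart from *Elk1*, which lies on chromosome X.

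RNA came from skin keratinocytes of pups taken at postnatal day 1 on the FVBN strain, either WT or Ts (the trisomic Ts1Rhr genotype), with a separate pup behind each culture. WT-NT and Ts-NT cultures received no treatment, and WT-TPA and Ts-TPA cultures received 0.2 μM TPA for 12 h, so that 16 one-color Illumina MouseRef-8 arrays make 4 groups of 4. The segment was moved onto this strain from C57BL/6J by backcrossing, and strain-derived sequence around it was not tested. TPA, a phorbol ester, acts on protein kinase C and, through it, on Ras-ERK signalling. Comparisons by genotype and by treatment use the same 16 arrays and so are not independent of each other.

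Several ETS proteins are end points of Ras-ERK signalling. ERK phosphorylates *Ets1* and *Ets2* proteins, which then activate genes of matrix breakdown and growth, often together with AP-1 at neighbouring sites. The ternary complex factors *Elk1*, *Elk3* and *Elk4* sit on promoters with serum response factor, and *Elk3* represses there until ERK phosphorylates it. *Elf3* and *Ehf* are ETS factors of epithelia, and in skin *Elf3* is known for the late differentiation of keratinocytes. *Elf1* is a broadly expressed activator, *Etv6* is a repressor, and *Erg* is best known in endothelium, cartilage and blood stem cells.

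The promoters of *Ets2* and *Elk3* are shown because the comparisons below turn on these genes, the first as the trisomic member and the second as the ternary complex factor nearest to detection. The RefSeq table (build GRCm38.p6) held a promoter for 8 of the 10 genes, 13 promoters in all, and had none for *Ets1* or *Ehf*. Each sequence is the 250 bases before the annotated start, read 5′ to 3′ on the strand of the gene, with every GGAA or its reverse complement TTCC in capitals. The *Ets2* window is chr16:95702157-95702406 on the plus strand and the *Elk3* window is chr10:93311160-93311409 on the minus strand.
Ets2: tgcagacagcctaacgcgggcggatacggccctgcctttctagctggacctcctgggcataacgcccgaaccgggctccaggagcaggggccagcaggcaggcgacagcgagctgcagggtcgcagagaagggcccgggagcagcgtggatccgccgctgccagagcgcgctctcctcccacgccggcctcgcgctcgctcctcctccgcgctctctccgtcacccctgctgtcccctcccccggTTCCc
Elk3: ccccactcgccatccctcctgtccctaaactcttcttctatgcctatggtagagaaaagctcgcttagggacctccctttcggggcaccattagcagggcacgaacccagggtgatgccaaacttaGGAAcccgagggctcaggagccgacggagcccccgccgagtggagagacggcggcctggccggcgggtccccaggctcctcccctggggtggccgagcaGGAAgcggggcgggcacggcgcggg
The *Ets2* window held 1 core, whose first base is 5 bases before the start, and the *Elk3* window held 2, at 124 and 25 bases before the start. A core of only 4 letters is common: 11 of the 13 member promoters held one, against 93.4% of all 32851 promoters of this length, so a match is a description and not a binding site. The AP-1 letters TGANTCA, searched on both strands and unable to overlap GGAA, were in 1 of the 13 (a second start of *Elf1*) and in 6.75% of all promoters.

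Of the 18 probes, 6 passed the detection filter, for which 4 or more of the 8 WT arrays, or of the 8 Ts arrays, must have a detection p no higher than 0.01 against negative control probes. They represent 5 genes: *Ets2*, *Ets1* (1 of 3 probes), *Elk3* (1 of 2), *Elf1* and *Elf3* (2 of 3). *Erg* (2 probes), *Elk4* (4), *Ehf* (1) and *Etv6* (1) were detected on 0 of 16 arrays. Over all probes 8317 passed, representing 6063 genes, and p-values were adjusted over all of these. Levels are log2 signals on a variance-stabilized scale, and levels of different probes cannot be set against each other.

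The arrays themselves differed between genotypes before normalization. The raw background, the median signal of probes with a detection p above 0.5, was 137.8 to 150.9 on the WT arrays and 174.9 to 238.9 on the Ts arrays, and the arrays of the 4 groups detected between 6371 and 8876 probes. After normalization the median log2 difference over all genes (Ts minus WT) was −0.15 untreated and −0.20 with TPA, so differences between genotypes are given also relative to that median. All 10 basal keratinocyte markers were detected on at least 2 arrays of every group. Of 7 markers of differentiated keratinocytes, 5 were in WT-NT, WT-TPA and Ts-TPA and 4 in Ts-NT. *Krt1* and *Dsg1a* of that list were undetected on every array. Of 4 simple epithelial markers, 4 were so detected in WT-NT, 3 in WT-TPA, 2 in Ts-NT and 3 in Ts-TPA. The arrays also carried melanocyte signal: all 6 melanocyte markers with a probe were detected on 2 or more WT-NT arrays. In each of the other groups 5 of the 6 were. Their summed signal above background was 9057 to 19031 untreated and 10018 to 17165 with TPA on the WT arrays. On the Ts arrays it was 11139 to 14709 untreated and 11633 to 16165 with TPA. For fibroblast markers these sums were 635.2 to 1210 untreated and 711.3 to 1280 with TPA on the WT arrays, and 1019 to 1471 and 835.9 to 1621 on the Ts arrays, with *Lum* and *Pdgfra* detected on 0 arrays. Endothelial markers, of which 7 of 8 with a probe were undetected on every array (*Pecam1* and *Cdh5* among them), and immune markers, of which 9 of 11 were (*Ptprc* among them), gave little signal. The part of these other cells in the results was not tested. In bulk RNA, fewer cells of a type and less RNA per cell cannot be told apart. Culture 1 of both genotypes stood apart: untreated *Mmp13*, a collagenase gene, was at 11.44 in WT and 9.56 in Ts on the log2 scale, against 6.55 to 7.63 in the other 6 untreated cultures.

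*Ets2*, the trisomic member that was measured on all 16 arrays, showed no detectable difference between Ts and WT keratinocytes. Its levels in WT-NT replicates 1 to 4 were 11.94, 12.05, 11.60 and 11.76, and in Ts-NT replicates 1 to 4 they were 12.37, 11.95, 12.01 and 10.84. The untreated groups overlapped, with Ts-NT replicate 1 the highest of the 8 arrays and Ts-NT replicate 4 the lowest. The mean was 11.84 ± 0.20 in WT-NT and 11.79 ± 0.66 in Ts-NT (SD, n = 4 each), a difference of −0.04 ± 0.34 (SE) with an adjusted p of 0.974 (limma). Its 95% interval, −0.75 to 0.66, holds both 0 and 0.58, the log2 of 3 copies over 2. The direction rests on the scaling: relative to the median of all genes the difference was 0.11, with each array centred it was 0.14, and without Ts-NT replicate 4 it was 0.28.

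With TPA the *Ets2* levels were 11.92, 11.54, 10.73 and 10.995 in WT-TPA replicates 1 to 4. In Ts-TPA replicates 1 to 4 they were 12.32, 11.87, 11.09 and 11.14. Each Ts-TPA array was above the WT-TPA array of the same number, while the groups overlapped, and the share of all genes ordered so is not given here. The difference was 0.31 ± 0.34 (adjusted p = 0.704, limma), or 0.51 relative to the median of all genes, with a 95% interval of −0.40 to 1.012 that again holds 0 and 0.58. It was 0.07 without Ts-TPA replicate 1 and 0.12 without WT-TPA replicate 3, both still above 0.

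*Erg*, the other trisomic member, was not detected in either genotype. The brighter of its 2 probes had raw signals of 168.2, 166.6, 143.7 and 160.1 in WT-NT replicates 1 to 4 and 190.3, 231.4, 230.3 and 189.1 in Ts-NT replicates 1 to 4. The Ts signals were the higher ones, but so was the Ts background, and the lowest detection p of either probe on any array was 0.074. The lowest signal of any detected probe was 176.2 to 190.7 on WT-NT arrays, against 228.9 to 265.2 on Ts-NT arrays. No fold is given for *Erg*, because both genotypes were below the detection limit.

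Between the genotypes no ETS factor was called, untreated or with TPA. In Ts-NT against WT-NT 4 of the 6063 genes tested were called (0.066%), and in Ts-TPA against WT-TPA 1 was (0.0165%), so the 0 of 5 members called is a count against a background near 0. With the replicate number as a block, 93 genes were called untreated and 147 with TPA, and again 0 of the 5 members. Without the block the count of members at an unadjusted p below 0.05 was also 0 in each comparison, against 15.3% of all genes untreated and 17.5% with TPA.

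**Figure D1:**
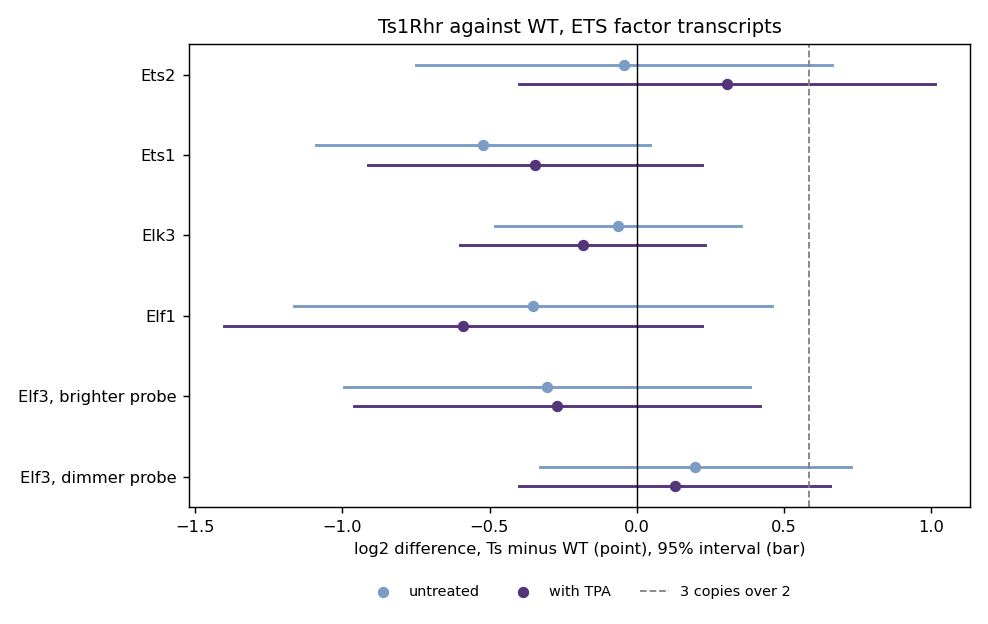
Log2 difference between Ts and WT (x axis, Ts minus WT) for the 6 probes of 5 ETS genes past the detection filter (y axis), untreated and with TPA, n = 4 arrays per group. Points are limma estimates and bars 95% intervals. Each bar crosses 0, and the untreated *Elk3* bar rests on a Ts group in which 0 of 4 arrays detected it. The bars of trisomic *Ets2* and those of the dimmer probe of disomic *Elf3* also cross the dashed line at 0.58, the log2 of 3 copies over 2.

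Among the disomic members, *Ets1*, which activates genes of invasion and matrix breakdown, had the lowest p between untreated genotypes. Its levels in WT-NT replicates 1 to 4 were 10.11, 9.17, 9.50 and 9.25, and in Ts-NT replicates 1 to 4 they were 9.22, 8.57, 9.29 and 8.86. The untreated groups overlapped, with WT-NT replicate 1 well above the other arrays. The difference was −0.52 ± 0.27 (unadjusted p = 0.069, adjusted p = 0.438, limma), and −0.37 relative to the median of all genes. Without WT-NT replicate 1 it was −0.32. With TPA the levels were 10.36, 9.59, 9.55 and 10.15 in WT-TPA and 9.99, 9.14, 9.26 and 9.86 in Ts-TPA, a difference of −0.35 ± 0.27 (adjusted p = 0.567), or −0.15 relative to that median, and −0.20 without WT-TPA replicate 1. By number, *Ets1* was lower in Ts in all 4 pairs untreated (differences of −0.89, −0.60, −0.21 and −0.39) and in all 4 with TPA (−0.36, −0.45, −0.29 and −0.28). Most genes lay lower in Ts: 29.4% of all genes had a difference above 0 untreated and 24.2% with TPA. The share of genes lower in every pair is not given here. Blocked by replicate number, the untreated *Ets1* difference had an unadjusted p of 0.016 and an adjusted p of 0.164, and the one with TPA 0.094 and 0.313 (limma). With neqc or quantile normalization the difference with TPA was −0.07 or −0.06. The 2 other *Ets1* probes, which did not pass the filter, were detected on 1 and 0 arrays.

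*Elf1* and *Elf3* showed no called difference between genotypes either. For *Elf1* the difference was −0.35 ± 0.39 untreated and −0.59 ± 0.39 with TPA, with 95% intervals of −1.16 to 0.46 and −1.40 to 0.22. Relative to the median of all genes these differences were −0.20 and −0.39. The probes of *Elf3* disagreed in sign: the brighter one gave −0.30 ± 0.33 untreated and −0.27 ± 0.33 with TPA, and the dimmer one gave 0.20 ± 0.25 and 0.13 ± 0.25. Relative to that median the brighter one was at −0.15 and −0.07 and the dimmer one at 0.35 and 0.33. All of these intervals hold 0 and are wide, so they do not show that the genotypes are alike.

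*Elk3* was the ETS factor closest to the edge of detection, and its detection went with the array background. On the WT arrays its raw signals were 207.5, 183.0, 175.2 and 161.3 in WT-NT replicates 1 to 4 and 197.2, 199.0, 201.8 and 213.8 in WT-TPA replicates 1 to 4. It was detected on 2 of 4 WT-NT arrays and on 4 of 4 WT-TPA arrays. On the Ts arrays the raw signals were 224.5, 244.4, 226.1 and 217.3 in Ts-NT and 285.8, 239.6, 303.3 and 303.1 in Ts-TPA, yet it was detected on 0 of 4 and 1 of 4 (Ts-TPA replicate 1). Ts-TPA replicate 3 missed the limit narrowly, with a detection p of 0.013. Every Ts array thus had a higher raw *Elk3* signal than every WT array, over a higher background, and a lower count of detections. On raw signals the background and the genotype cannot be told apart.

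**Figure D2:**
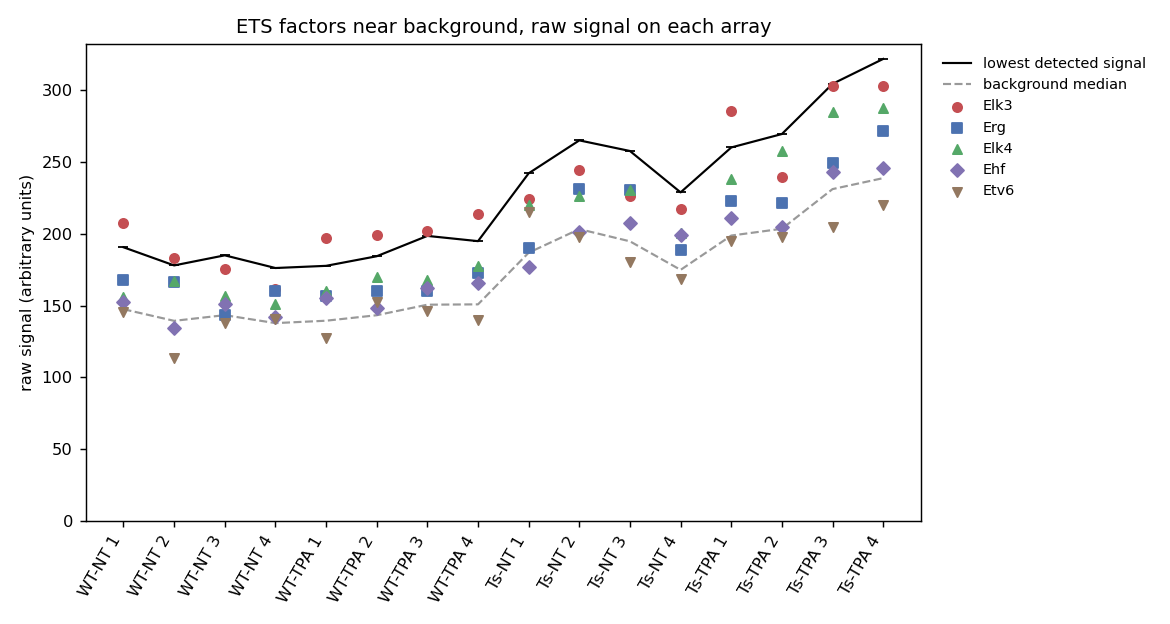
Raw signal in arbitrary units (y axis) of the brightest probe of *Elk3*, *Erg*, *Elk4*, *Ehf* and *Etv6* on each of the 16 arrays (x axis), with the lowest detected signal (solid line) and the background median (dashed line) of each array. *Elk3* reaches the solid line on 7 arrays, 6 of them WT, and the other 4 genes stay below it on every array while the background lies higher on the Ts arrays.

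After normalization the *Elk3* levels were 5.93, 5.79, 5.57 and 5.34 in WT-NT replicates 1 to 4 and 5.51, 5.62, 5.35 and 5.88 in Ts-NT replicates 1 to 4. With TPA they were 6.14, 6.09, 6.18 and 6.28 in WT-TPA and 6.31, 5.55, 6.14 and 5.95 in Ts-TPA. The genotypes overlapped in both conditions, and Ts-TPA replicates 1 and 2 were the highest and the lowest of the TPA arrays. Untreated, no difference or fold can be given, because *Elk3* was below the detection limit on every Ts-NT array and on 2 of 4 WT-NT arrays. With TPA, where 1 of 4 Ts arrays detected it, the fitted difference was −0.18 ± 0.20 (adjusted p = 0.698, limma). It was 0.02 relative to the median of all genes and 0.03 with each array centred, so it has no settled sign. The second *Elk3* probe was detected on 0 arrays.

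*Elk4*, *Ehf* and *Etv6* did not reach the detection limit on any array. *Elk4*, the related ternary complex factor, came nearest: the lowest detection p over its 4 probes was 0.01003, just over the limit of 0.01, and raw signals ran from 127.7 to 287.4. *Ehf*, known from epithelia, had raw signals of 134.2 to 245.6 and a lowest detection p of 0.207. *Etv6* had raw signals of 113.7 to 219.8 and a lowest detection p of 0.167. Signals of this size limit what the arrays can show and do not show that these transcripts were absent.

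**Figure D3:**
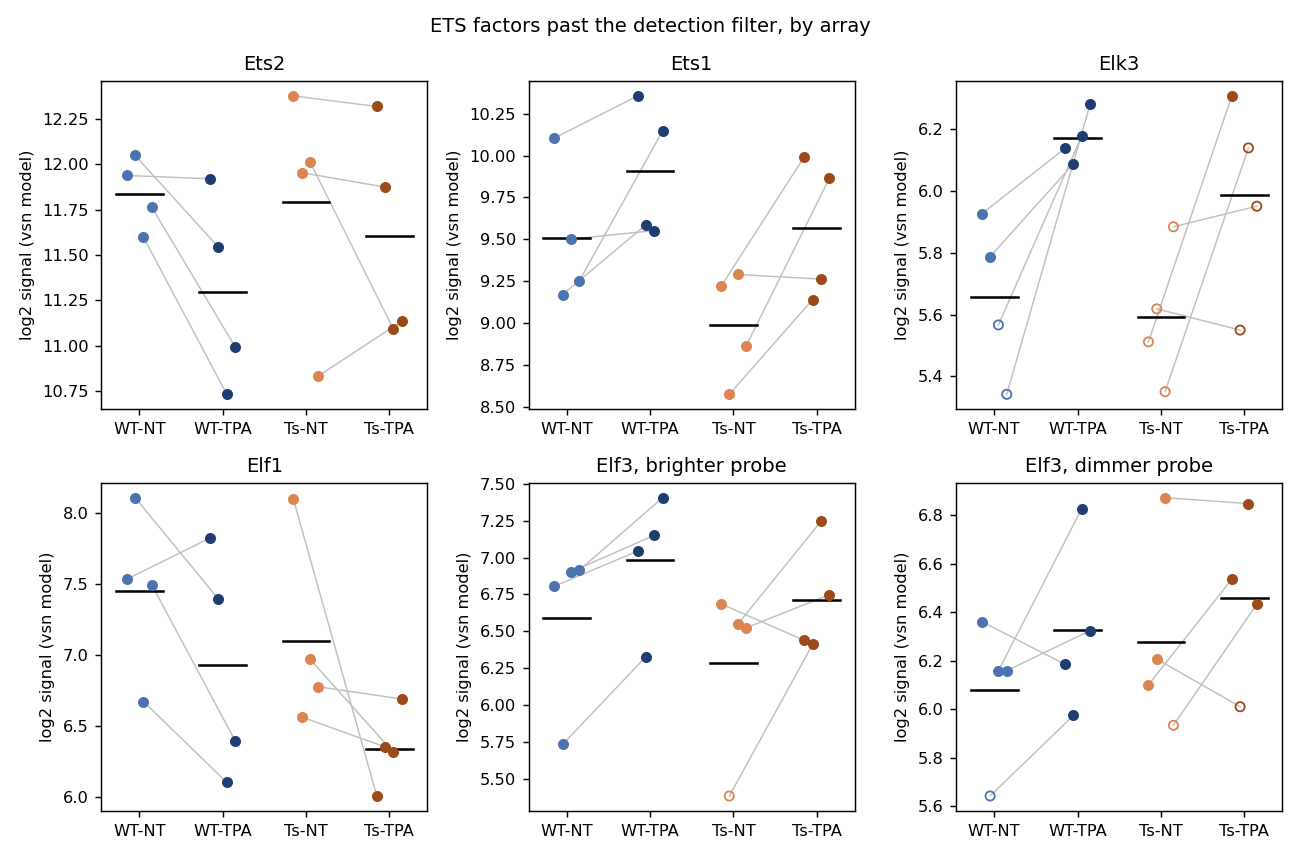
Log2 signal on the variance-stabilized scale (y axis) of the 6 ETS probes past the filter in the 4 groups (x axis), 1 point per array, with filled points for detected and open points for undetected arrays, a bar for the group mean and gray lines joining the untreated and TPA arrays of a culture. In WT the *Elk3* points of WT-TPA, 6.09 to 6.28, lie above those of WT-NT, 5.34 to 5.93, and *Elf1* in culture 1 of Ts has the steepest line, from 8.10 to 6.0045.

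The second question was how the ETS transcripts changed when TPA was added, tested within each genotype by pairing the arrays of a culture. In WT cells 161 of 6063 genes were called (2.66%) and 0 of the 5 measured members. In Ts cells 64 were called (1.06%) and again 0 of 5. At an unadjusted p below 0.05, 4 of 5 members passed in WT against 21.7% of all genes, and 2 of 5 in Ts against 15.3%. These counts hold *Elk3*, whose probe passed the filter through its 4 WT-TPA arrays, and are a description only. *Ets1* and *Elf3* had higher means with TPA in both genotypes, and *Ets2* and *Elf1* had lower ones. *Elk3* had a higher mean with TPA in WT, and in Ts no direction is given because every Ts-NT array was below its detection limit.

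*Ets2* was lower with TPA in all 4 WT cultures, as were 16.3% of all genes. Its changes were −0.02, −0.50, −0.86 and −0.77 in WT cultures 1 to 4. In Ts cultures 1 to 4 the changes were −0.06, −0.08, −0.92 and 0.30. Culture 1 of either genotype barely moved, and Ts culture 4 moved the other way. The mean change in WT was −0.54 ± 0.19 (unadjusted p = 0.019, adjusted p = 0.172, limma; 95% interval −0.97 to −0.11). In Ts it was −0.19 ± 0.24 (adjusted p = 0.783), and 0.05 without Ts replicate 3. The change differed between genotypes by 0.35 ± 0.31 (95% interval −0.32 to 1.02), which is no detectable difference.

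The *Elk3* probe passed the filter through the WT-TPA arrays, where it was detected on 4 of 4 against 2 of 4 in WT-NT, so that its WT values are a description of a probe that entered through its brighter group. WT-TPA ran from 6.09 to 6.28 and WT-NT from 5.34 to 5.93 without overlap, as did 3.03% of all genes in this direction. The change was 0.21, 0.30, 0.61 and 0.94 in WT cultures 1 to 4, a mean of 0.51 ± 0.19 with an adjusted p of 0.175 (limma). Its size depends on the scaling, at 0.26 with quantile normalization and 0.16 with the authors' values. In Ts cultures 1 to 4 the fitted changes were 0.79, −0.07, 0.79 and 0.07, and no fold is given because Ts-NT was undetected on every array. For the same reason the fitted difference of the *Elk3* change between genotypes, −0.12 ± 0.29, is no comparison of measured levels.

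*Ets1* changed with TPA by 0.25, 0.42, 0.05 and 0.90 in WT cultures 1 to 4 and by 0.78, 0.57, −0.03 and 1.00 in Ts cultures 1 to 4. Culture 3 was near 0 in both genotypes, and culture 4 had the largest change in each. The mean was 0.40 ± 0.19 in WT (adjusted p = 0.286, limma) and 0.58 ± 0.23 in Ts (adjusted p = 0.323). Without WT replicate 4 the WT value was 0.24.

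*Elf1* had levels of 7.53, 8.11, 6.67 and 7.49 in WT-NT replicates 1 to 4 and 7.82, 7.39, 6.10 and 6.39 in WT-TPA. In Ts-NT they were 8.10, 6.56, 6.97 and 6.77, and in Ts-TPA 6.0045, 6.35, 6.31 and 6.69. It was lower with TPA in 3 of 4 WT cultures and in 4 of 4 Ts cultures, the latter like 14.6% of all genes. The groups overlapped in both genotypes. The mean change was −0.52 ± 0.23 in WT (adjusted p = 0.253, limma) and −0.76 ± 0.31 in Ts (adjusted p = 0.342). Culture 1 decided much of the Ts value: it changed by −2.09, the other Ts cultures by −0.66 to −0.09, and the mean without it was −0.32.

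*Elf3* had levels on its brighter probe of 6.81, 5.73, 6.90 and 6.91 in WT-NT replicates 1 to 4 and 7.04, 6.33, 7.15 and 7.41 in WT-TPA. In Ts-NT they were 6.69, 5.38, 6.55 and 6.52, and in Ts-TPA 6.44, 6.41, 7.25 and 6.75. Replicate 2 was the lowest of its group in all 4 groups. The mean change was 0.39 ± 0.17 in WT (adjusted p = 0.252, limma), with all 4 cultures higher, and 0.43 ± 0.24 in Ts (adjusted p = 0.504), with 3 of 4 higher. Over all genes, 11.1% were higher in all 4 WT cultures. The dimmer probe gave 0.25 ± 0.19 and 0.18 ± 0.22.

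**Figure D4:**
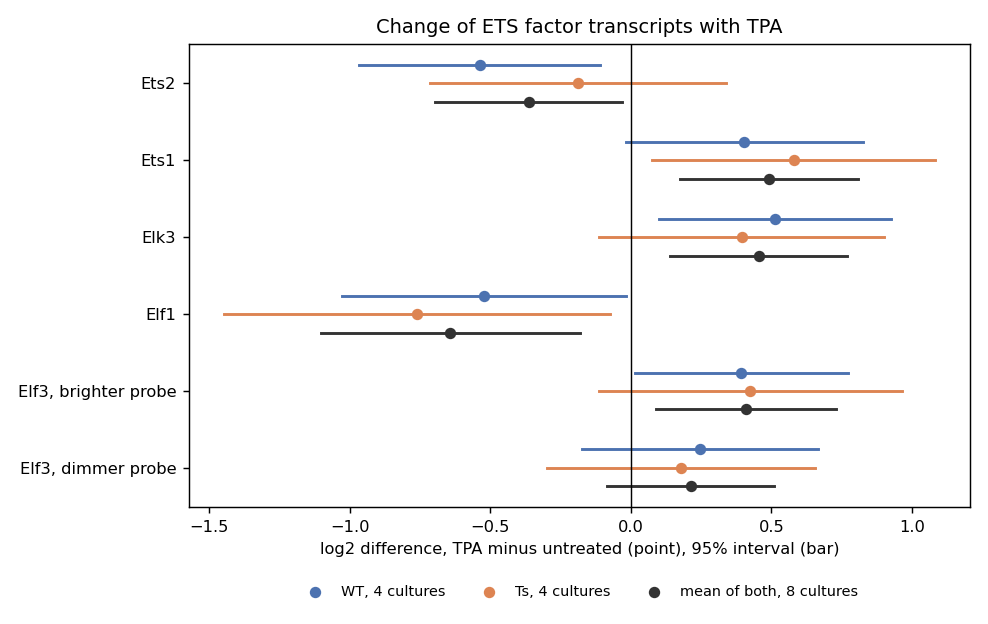
Log2 change with TPA (x axis, TPA minus untreated) of the 6 ETS probes past the filter (y axis) in WT, in Ts (4 cultures each) and as the mean over all 8 cultures. Points are limma estimates and bars 95% intervals; *Ets2* and *Elf1* lie below 0 and the other probes above it, no probe passed an adjusted p of 0.05, and *Elk3* was detected on 0 of 4 Ts-NT arrays.

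Whether a change with TPA differed between the genotypes was tested in a single fit of all 16 arrays, each culture its own block. No gene was called in that test (0%), and 280 of 6063 genes (4.62%) had an unadjusted p below 0.05, none of them a measured ETS factor. The mean change over all 8 cultures, a fit added after the data were seen, called 648 genes (10.7%) and 0 of the 5 members. All 5 had an unadjusted p below 0.05 there, against 28.6% of all genes. This count also holds *Elk3*, whose probe passed the filter through its WT-TPA arrays, and is a description only. *Ets1* came closest, at 0.49 ± 0.15 (adjusted p = 0.053, limma), higher in 7 of 8 cultures. *Elf1* was at −0.64 ± 0.21 (adjusted p = 0.080), lower in 7 of 8. For *Elk3*, undetected on every Ts-NT array, the fitted mean of 0.45 ± 0.15 is no comparison of measured levels. No adjusted p or count of cultures is given for it. *Ets1* passed under several other normalizations, at adjusted p = 0.022 with the authors' own normalized values, so its side of the threshold depends on the processing. Without culture 1 of both genotypes *Elf1* and *Elf3* passed instead, at adjusted p = 0.040 and 0.046.

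The other ETS family genes gave a few measured relatives. Of 16 listed, 15 had a probe and 4 passed the filter: *Elf2*, *Elf5*, *Etv4* and *Gabpa*. None was called within a genotype, and over the 8 cultures *Etv4*, a factor of the PEA3 group that ERK activates, rose (adjusted p = 0.0086, limma). *Etv4* was at 6.05, 5.98, 6.55 and 6.41 in WT-NT replicates 1 to 4 and at 6.53, 6.44, 7.12 and 6.78 in WT-TPA, and at 5.85, 5.95, 5.93 and 6.05 in Ts-NT and 6.98, 6.33, 6.93 and 6.69 in Ts-TPA. It was higher with TPA in all 8 cultures, as were 3.32% of all genes. In Ts-NT it was detected on 0 of 4 arrays, so there it has only a bound, at least 1.61-fold higher with TPA (the Ts-TPA mean over the mean of the lowest detected level, or the probe's own where higher, on the Ts-NT arrays). In WT, where all 8 arrays detected it, the change was 0.47 ± 0.16 (adjusted p = 0.165). Its call over the 8 cultures held under all 13 alternatives run for it. *Gabpa*, whose protein binds DNA with *Gabpb1*, rose by 0.52 ± 0.13 (adjusted p = 0.026), but kept the call under only 6 of 13 and lost it, for example, without WT replicate 1. Between genotypes none of the 4 was called. The lowest p among them was that of *Gabpa* with TPA, a difference of −0.76 ± 0.28 (adjusted p = 0.238, limma). Relative to the median of all genes that difference was −0.56.

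Among upstream kinases, partners and cofactors *Srf* was the gene called over the 8 cultures. Of 21 listed genes 11 had a probe and 10 passed the filter, and none was called within a genotype, between genotypes or in the difference of the changes. *Srf*, the serum response factor on which the ternary complex factors sit, fell over the 8 cultures by 0.67 on the log2 scale (SE 0.15, adjusted p = 0.014, limma), 1 of 10 genes called where 10.7% of all genes were. Its levels were 10.31, 9.19, 9.34 and 9.47 in WT-NT replicates 1 to 4, 9.94, 8.60, 8.58 and 8.998 in WT-TPA, 9.90, 9.47, 9.44 and 9.69 in Ts-NT and 9.81, 8.78, 8.44 and 8.29 in Ts-TPA. It was lower with TPA in every culture, as were 5.51% of all genes. Its call was lost only without the replicate block among 13 alternatives. *Ep300*, a histone acetyltransferase that ETS proteins recruit, had the lowest p of the list between genotypes, with a difference of −0.67 ± 0.27 with TPA (adjusted p = 0.272, limma). Relative to the median of all genes that difference was −0.47. The median change of the 10 genes was −0.04 in WT and −0.08 in Ts, beside −0.06 and −0.10 over all genes.

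Among genes known as ETS targets, a few matrix protease genes and *Timp1* rose with TPA. Of 25 listed, 22 had a probe and 18 passed the filter, and 3 rose in WT (*Mmp3*, *Mmp9* and *Mmp13*) and 4 in Ts (the same genes and *Timp1*), with none falling, where 2.66% and 1.06% of all genes were called in either direction. The list was chosen with earlier results of these data known. The median change of the 18 was 0.70 in WT and 0.48 in Ts, beside −0.06 and −0.10 over all genes. Between genotypes and in the difference of the changes 0 of 18 were called. These genes are also bound by AP-1 and other factors, and which factor acted was not measured.

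The collagenase *Mmp13* had the widest change, 4.45 ± 0.78 in WT (adjusted p = 0.021, limma) and 4.46 ± 0.71 in Ts (adjusted p = 0.016). Its levels were 11.44, 6.55, 7.47 and 7.63 in WT-NT replicates 1 to 4 and 11.99, 13.87, 12.54 and 12.51 in WT-TPA, and 9.56, 7.24, 7.18 and 6.86 in Ts-NT and 10.20, 13.63, 12.49 and 12.37 in Ts-TPA. In each genotype replicate 1 was the highest untreated array and the lowest treated one. The gelatinase *Mmp9* had the same feature: WT-NT was at 8.31, 5.65, 5.22 and 5.74 and WT-TPA at 8.08, 10.22, 8.14 and 9.12, so that culture 1 of WT was lower with TPA. *Mmp9* rose by 2.66 ± 0.58 in WT (adjusted p = 0.047, limma) and by 3.33 ± 0.49 in Ts (adjusted p = 0.0096). It was detected on only 1 of 4 untreated arrays in each genotype, culture 1, so these sizes rest on a mostly undetected baseline and are not exact. In WT the calls of *Mmp13* and *Mmp9* were lost without replicate 2, 3 or 4, that of *Mmp9* also without the replicate block or with the authors' values, and in Ts both held in all 9 alternatives.

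The stromelysin *Mmp3* rose by 1.07 ± 0.29 in WT, where its brightest probe missed the threshold and 2 of its 3 probes passed, and by 1.69 ± 0.27 in Ts, where all 3 passed. *Timp1*, an inhibitor of these proteases, changed by 0.98 ± 0.24 in WT (adjusted p = 0.069, limma) and rose by 1.77 ± 0.30 in Ts (adjusted p = 0.021), where 2 of 4 Ts-NT arrays detected it. In Ts both calls were lost without replicate 2, 3 or 4, and in WT that of *Mmp3* without replicate 3 or 4 or without the replicate block. Over the 8 cultures 9 of the 18 rose, where 10.7% of all genes were called in either direction. Among them were *Plau*, the urokinase gene, at 0.94 ± 0.18 and *Egr1*, a classical target of the ternary complex factors, at 0.76 ± 0.20, which kept its call under 6 of 13 alternatives. *Mmp3*, *Mmp9*, *Mmp13*, *Timp1* and *Plau* kept theirs under all 13, *Sprr1a* under 8, *Mmp10* under 7 and *Flt1* under 5. *Mmp9*, *Mmp10* and *Flt1* were detected on 1 of 4 untreated arrays in each genotype. Their probes thus passed the filter through their TPA arrays.

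**Figure D5:**
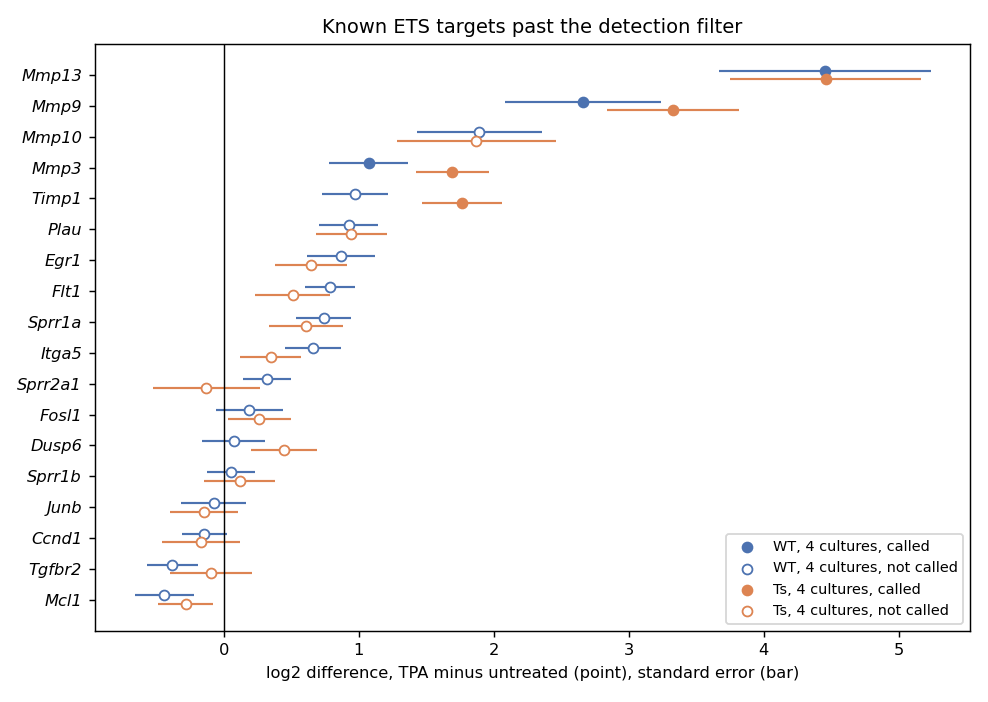
Log2 change with TPA (x axis, TPA minus untreated; bars are standard errors) of the 18 known ETS targets past the filter (y axis) in WT and Ts, 4 cultures each, at the probe with the highest mean. Filled points mark genes with any probe at an adjusted p below 0.05: 3 in WT and 4 in Ts, led by *Mmp13* at 4.45 and 4.46.

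Promoters of *Mmp3* and *Mmp13* are shown as examples, chosen after their letters were seen, of ETS and AP-1 letters side by side in genes that rose with TPA. The *Timp1* promoter held 6 ETS cores in 250 bases and no TGANTCA, and those of *Gabpa* and *Srf* held 5 each and no TGANTCA. Each is the 100 bases before the RefSeq start (GRCm38.p6, plus strand), *Mmp3* at chr9:7445722-7445821 and *Mmp13* at chr9:7272414-7272513, with GGAA or TTCC and TGANTCA in capitals.
Mmp3: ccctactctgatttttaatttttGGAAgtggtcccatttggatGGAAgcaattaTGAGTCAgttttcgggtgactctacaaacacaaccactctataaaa
Mmp13: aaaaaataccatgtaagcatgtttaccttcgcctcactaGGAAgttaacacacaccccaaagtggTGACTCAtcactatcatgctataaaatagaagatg
In *Mmp3* the ETS letters begin 77 and 57 bases before the start and the AP-1 letters at 46. In *Mmp13* the ETS letters begin 61 bases before the start and the AP-1 letters at 35. The *Ets2* and *Elk3* windows above hold no TGANTCA, which says only that these letters are not in those 250 bases.

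By profile over the 16 arrays the genes most like *Ets2* were *Rap2c* (Pearson r = 0.858), *Rab40c* (0.839) and *Vps26b* (0.835), and those most like *Elk3* were *Moxd1* (0.898), *Porcn* (0.821) and *Itgb4* (0.804). The 16 points share cultures and array background, and the correlations are a description only. The *Elk3* probe was detected on 7 of the 16 arrays, so most points behind its correlations lie below the detection limit.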

How the data were processed

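The authors deposited raw intensity and a detection p-value for every probe of 16 MouseRef-8 arrays, and log2 values that they normalized with vsn. Here the raw intensities were transformed by a vsn-type model written in R 4.3.3 (r of 0.958 to 0.964 with the authors' values, per array). Probes needed a detection p of 0.01 or less on 4 arrays of 1 genotype. Symbols came from the platform annotation: 23978 probes have 1 and 1719 have none.

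limma 3.58.1 (lmFit, eBayes) was fitted over all 8317 probes, with Benjamini-Hochberg adjustment over all of them and a threshold of 0.05. Genes were called by any probe and are described by the probe of highest mean signal. TPA was tested with the culture as a block, genotype on group means of 16 arrays, as in the study's methods. The fits were tested on simulated data. The number of arrays limits the precision. With the culture as a block, p-values measure how far the changes with TPA differ between cultures. Between genotypes they measure the spread of arrays within the 4 groups, with both arrays of a culture taken as independent. No arrays were identical.

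Whether replicate numbers pair arrays was checked from deviations from group means. Between genotypes same-numbered arrays correlated at 0.518, 0.323, 0.357 and 0.286 untreated and 0.573, 0.536, 0.338 and 0.238 with TPA. Within WT the untreated and TPA arrays of numbers 1 to 4 correlated at 0.412, 0.447, 0.451 and 0.192. Within Ts they did so at 0.309, 0.190, 0.241 and 0.067. For number 4 the best match with another number was higher, at 0.206 within WT, 0.0998 within Ts and 0.249 between the TPA groups. These correlations thus do not show that number 4 pairs. The sources used here do not say what same-numbered WT and Ts cultures have in common.

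The members, lists and tests were chosen with earlier results of these data known. Named are all members, the list genes called within or between genotypes (if none, 2 by lowest p), and 3 genes most like *Ets2* and *Elk3*. *Plau*, *Egr1*, *Sprr1a*, *Mmp10* and *Flt1* were added after their values were seen. Alternatives changed the normalization, filter, probe rule, block and arrays.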

Additional observations from a re-analysis of the deposited data

Results flagged for a closer look

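On the brighter *Elf3* probe, replicate 2 stood far below the other arrays of its group in both untreated groups. WT-NT replicate 2 was at 5.73 on the log2 scale, against 6.81 to 6.91 for the other 3, and its gap was 0.908 of the group's range. Ts-NT replicate 2 was at 5.38, against 6.52 to 6.69, with a gap of 0.875 of the range, and its detection p was 0.173. Both shares exceed Dixon's 95% critical value for 4 arrays. Of 72 groups of ETS probe values tested, these 2 exceeded it, and chance alone gives about 1 in 20.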

How the results depend on the processing

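In the 5 planned comparisons 0 ETS genes were called under every alternative run. The mean change over 8 cultures, added later, had 0 called, but 1 (*Ets1*) with neqc, quantile normalization, the authors' values or the mean of a gene's probes, 2 (*Ets1* and *Elk3*) with each array centred, and 0 to 2 with cultures left out: *Elf1* without WT replicate 1, *Elf3* without Ts replicate 1, *Ets1* without Ts replicate 3, and *Elf1* and *Elf3* without replicate 1 of both genotypes. That last setting was chosen after the high untreated *Mmp13* levels of replicate 1 were seen. The cause was not tested. The *Elk3* call with centred arrays is a description only. Its probe passed the filter through its WT-TPA arrays and was undetected on every Ts-NT array.

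Of 594 member values under alternatives, 551 kept direction and side, 11 newly passed the threshold and 32 changed sign, none of them past the threshold in either setting. For Ts-NT against WT-NT, *Ets2* (−0.04) became 0.14 with neqc, quantile normalization or centred arrays and 0.083 with the authors' values, and *Elk3* (−0.06) became 0.0038 with the authors' values and 0.11 with centred arrays, with the same values under the replicate block. The *Elk3* values that involve Ts-NT are fitted values of a probe undetected there. *Elk3* with TPA became 0.033 with centred arrays, blocked or not. The *Elf3* difference in response became −0.018 with the mean of its probes. With replicates left out, *Ets2* in Ts with TPA ran from −0.35 to 0.054, and untreated between genotypes from −0.24 to 0.28. *Elk3* untreated between genotypes ran from −0.17 to 0.026, and was 0.052 without replicate 1 of both genotypes. The dimmer *Elf3* probe between genotypes ran from −5.88e-05 to 0.35 untreated (0.31 without Ts-NT replicate 4) and from −0.0012 to 0.30 with TPA. Differences in response ran from −0.46 to 0.21 for *Elf1* (0.48 without replicate 1 of both genotypes), −0.17 to 0.26 for the brighter and −0.30 to 0.072 for the dimmer *Elf3* probe (−0.21 without WT replicate 1), and −0.35 to 0.035 for *Elk3* (−0.25 without Ts replicate 1).

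Genes called in all moved more than members: with TPA in WT, 161 became 307 with quantile normalization, 23 without the replicate block and 20 to 283 with 1 culture left out, and in Ts 64 became 122, 26 and 24 to 85. With centred arrays 107 were called in Ts, and with the mean of a gene's probes 99 in WT. Over the 8 cultures 648 became 322 without the detection filter, 242 without the replicate block and 306 to 726 with cultures left out. Between genotypes, 4 untreated became 0 to 6 and 1 with TPA became 0 to 61 without the block, the 61 without the detection filter and 45 without Ts-TPA replicate 1. The replicate block between genotypes called 29 and 23 genes with the authors' values and 13 and 8 with centred arrays, untreated and with TPA, and changed no member's call. Signal limits *Elk3*, *Erg*, *Elk4*, *Ehf* and *Etv6*, which lie at or below the detection limit.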
